A study of Danio rerio with 20 samples.

Results

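The comparison described here is that of whole 3 dpf zebrafish carrying the *rnaset2* AO127 mutation with their WT siblings. Its samples were chosen by the stage and genotype in their titles, which gave 6 of the 20 arrays of the series, 3 of mutants and 3 of WT siblings. AO127 is an ENU-generated allele, and the study describes the line as since lost. Each sample was RNA of pooled dechorionated embryos, polyA RNA in the labels, hybridised to a one-colour Agilent zebrafish array. The other arrays measured mutants and WT siblings at 28 hpf (4 and 4 samples) and dissected brain of adults aged 1 year (3 and 3 samples). No source used here states how many embryos made a pool, whether pools of a genotype came from separate clutches, or how the embryos of the arrays were genotyped. The p-values therefore measure only the spread between these samples, which may be technical.

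The rnaset2 gene encodes RNase T2, a secreted and lysosomal ribonuclease. Lysosomes receive ribosomes through autophagy and dead cells through phagocytosis, and RNase T2 takes part in breaking down their RNA. Loss of the enzyme in zebrafish leads to a lysosomal storage disorder with ribosomal RNA in lysosomes, and loss of the human gene causes a leukoencephalopathy of infancy. In zebrafish, 3 dpf is about the time of hatching, when the gut, liver and pancreas are forming and microglia settle in the brain. The comparison asks how far expression in the whole larva differs between genotypes at that time.

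Each array gave the fluorescence of 43603 probes, quantile normalized by the authors, and the comparison was made on log2 of these intensities. No table used here ties a probe to a gene or a sequence. Results are therefore given by probe, and the expression of rnaset2 itself and of larval marker genes was not analysed here. Several probes may measure one gene. Intensities on the 6 arrays ran from 2.14 to 589725 with a median of 257.7 or 257.8 on every array, and no background reading was at hand to say which dim probes carried signal.

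The arrays of the 3 dpf larvae separated by genotype, by far more than arrays of a genotype differed from each other. Between arrays of a genotype the SD of the log2 differences over all probes was 0.348 to 0.388 (6 pairs), and between a mutant and a WT array it was 0.896 to 0.952 (9 pairs). A mutant and a WT array differed by at least 2-fold at 6448 to 7441 probes, and 2 arrays of a genotype at 792 to 1129. No pair of arrays had exactly equal deposited values at more than 50 probes, and replicate pairs were about equally far apart. Of the variance in log2 intensity among the 6 arrays, 81.3% lay between the genotypes and 18.7% between arrays of a genotype.

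**Figure D1:**
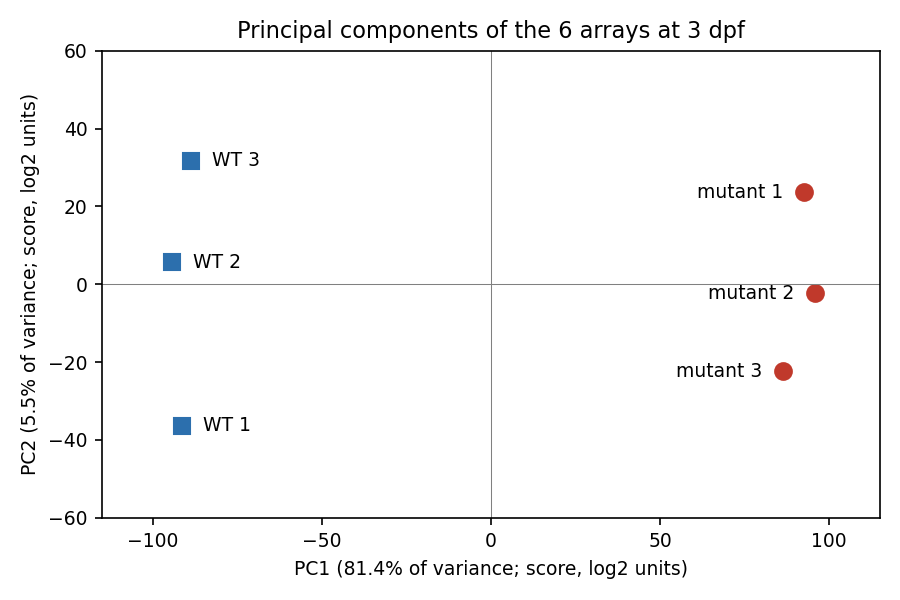
Scores of the 6 arrays at 3 dpf on the first and second principal components of log2 intensity over 43603 probes (red circles, mutants; blue squares, WT siblings; numbers are the replicates). PC1, with 81.4% of the variance, runs from -94.5 to -88.8 for WT siblings and from 86.4 to 95.8 for mutants, while PC2, with 5.5%, separates arrays of the same genotype.

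Mutant replicate 3 lay a little nearer to the WT siblings than the other mutants. It differed by at least 2-fold from a WT array at 6448 to 6664 probes, while mutant replicates 1 and 2 did so at 6969 to 7441. Its PC1 score was 86.4, against 92.6 and 95.8. The median SD of a probe's log2 intensity was 0.119 over the mutant arrays and 0.0992 over the WT arrays.

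Most probes of the array were called different between genotypes in the main fit. In a limma fit of the 6 arrays alone, 23799 probes passed a Benjamini-Hochberg adjusted p under 0.05, which is 54.6% of all probes, with 10371 higher (23.8%) and 13428 lower (30.8%) in mutants. All 3 mutant arrays lay above or all below the 3 WT arrays for 63.4% of probes and for 99.7% of the probes called. The second share largely follows from the call, which was made on the same 6 arrays. An exact two-sided permutation test of a single probe cannot go below p = 0.10 with 3 against 3, so the calls rest on a parametric test. An equal-variance test without limma's sharing of variance between probes called 21358, of which 20811 were among the 23799. At an adjusted p under 0.01 the limma fit called 16803. A majority of probes was therefore not reached in every setting.

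Most of these differences were under 2-fold. The median absolute log2 difference was 0.63 among the probes called, with a median standard error of 0.091, and 10811 of the probes called (45.4%) differed by less than 1.5-fold. Lower probes outnumbered higher ones only among the smaller changes. At 2-fold or more 3419 probes were higher and 2466 lower in mutants, at 8-fold or more 476 and 124, and at 64-fold or more 59 and 7. The excess of lower probes also depended on centring. The median log2 difference over all probes was -0.078, and with the mutant arrays shifted so that this median was 0, 11947 probes were higher and 11227 lower.

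Changes were found at every level of intensity, except that the dimmest probes were seldom called. Of the 4361 dimmest probes, with mean intensities up to 8.62, 17.2% were called, and the median SD between arrays of a genotype was 0.339 on the log2 scale. Among the 4361 probes between 131 and 254 the share called reached 63.7% with a median SD of 0.124. Among the 4361 brightest, above 6677, the median SD was 0.073, and 25.3% were called higher and 27.7% lower. Of these bright probes, 122 rose and 116 fell by 2-fold or more. Large rises were most numerous among the dimmer probes, with 108 probes at least 8-fold higher and 43 lower at mean intensities between 8.62 and 29.5.

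**Figure D2:**
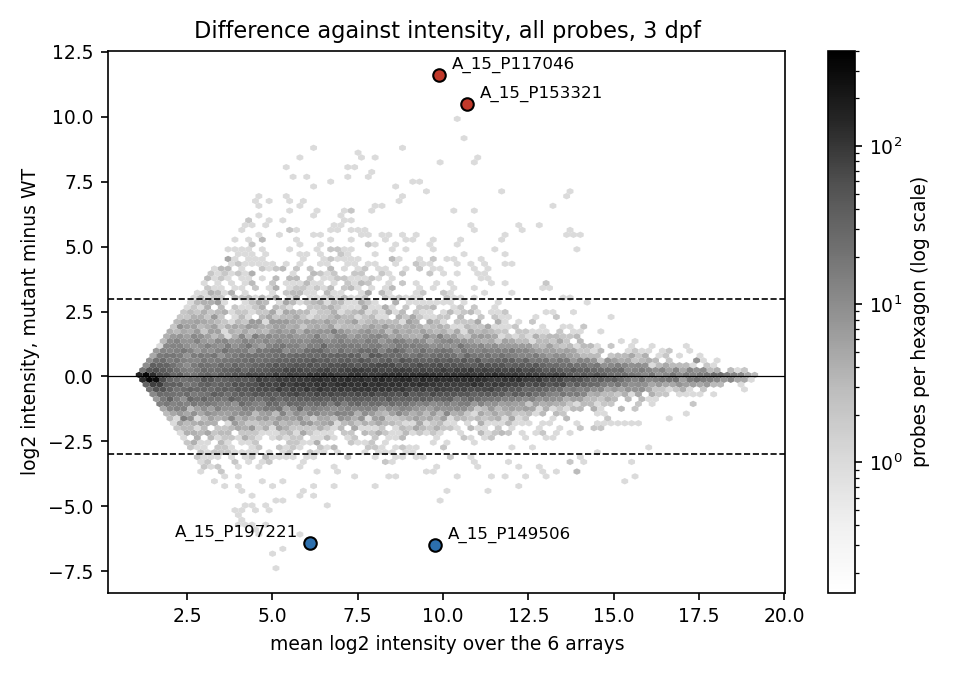
Log2 intensity of mutants minus WT siblings at 3 dpf against the mean log2 intensity over the 6 arrays for all 43603 probes, with the number of probes in each hexagon in grey on a log scale and the 4 probes named in the text as points. The dashed lines mark an 8-fold difference, which 476 called probes exceed upwards and 124 downwards.

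Of the 436 brightest probes of each array (the top 1%), at least 406 were shared by any 2 arrays of a genotype and at most 402 by a mutant and a WT array. On all 6 arrays 368 were shared. A further 16 probes were among the brightest on all mutant arrays and on no WT array, with median intensities of 134285 in mutants and 95925 in WT siblings. In the other direction there were 15 probes, at 91786 in mutants and 133613 in WT siblings. Of the 16, 3 differed by at least 2-fold between genotypes and 2 of these by at least 8-fold, and of the 15, 6 and 3. A probe's intensity depends on its own binding too, so these ranks are of probes and not of transcript abundance. By summed intensity the large rises still weighed in, since the 476 probes at least 8-fold higher held 0.964% to 1.08% of the total intensity of a mutant array and 0.0286% to 0.0331% of a WT array. The 124 probes at least 8-fold lower held 0.0402% to 0.0512% in mutants and 0.505% to 0.553% in WT siblings. These groups were chosen by the same difference, so their shares are a description.

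The named probes were taken by a rule, as the largest rises and falls among called probes whose genotypes did not overlap and whose brighter genotype had a mean intensity above 500. The largest rise was that of A_15_P117046, which read 50853, 55413 and 51420 in the 3 mutant samples and 12.8, 17.3 and 22.1 in the WT siblings. Every mutant sample was among the bright range of the array and every WT sample near its floor. The log2 difference was 11.59 (95% confidence interval 11.12 to 12.07, adjusted p = 1.4e-06 from limma).

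The second was A_15_P153321, at 63230, 65581 and 63456 in mutants and 42.3, 41.4 and 49.1 in WT siblings. The mutant samples agreed within an SD of 1297 around a mean of 64089 (n = 3), the WT siblings within 4.23 around 44.3 (n = 3), and the groups did not overlap. Its log2 difference was 10.50 (95% confidence interval 10.30 to 10.71, adjusted p = 5.3e-07 from limma). The WT values of both probes are dim, at under 50, so the folds depend on how such low readings are treated. On log2 of the intensity plus 50 the differences were 9.61 for A_15_P117046 and 9.41 for A_15_P153321.

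Neither probe was bright anywhere else in the series. For A_15_P117046 the 28 hpf mutants averaged 4.83 ± 1.47 (SD, n = 4) against 14.8 ± 4.56 (SD, n = 4) in their WT siblings. For A_15_P153321 they averaged 27.2 ± 2.07 (SD, n = 4) against 82.2 ± 20.8 (SD, n = 4). In adult brain the means were between 2.70 and 5.51 for A_15_P153321 and between 3.70 and 4.06 for A_15_P117046. At 28 hpf both probes thus read lower in mutants than in WT siblings, at dim values. The genotype difference at 3 dpf minus that at 28 hpf was 13.22 (standard error 0.42, adjusted p = 4.7e-10 from limma) on the log2 scale for A_15_P117046. For A_15_P153321 it was 12.07 (standard error 0.22, adjusted p = 5.4e-12 from limma). All named probes were chosen by their 3 dpf difference on the same arrays, so for them such tests between stages are a description. On log2 of the intensity plus 50 the differences at 28 hpf shrank to -0.24 for A_15_P117046 and -0.76 for A_15_P153321, and those between the stages were 9.85 and 10.17.

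The largest fall under the rule was that of A_15_P149506, which read 103, 91.0 and 83.3 in mutants and 9281, 7829 and 8078 in WT siblings at 3 dpf. The WT samples lay far above all mutants, with a log2 difference of -6.51 (95% confidence interval -6.77 to -6.24, adjusted p = 1.4e-06 from limma). Embryos of 28 hpf averaged 119 ± 7.53 (SD, n = 4) with the mutation and 98.8 ± 9.04 (SD, n = 4) without it for this probe. Adult brain averaged 49.0 ± 6.87 (SD, n = 3) in mutants against 59.7 ± 10.3 (SD, n = 3). The WT siblings at 3 dpf were therefore the only bright group, and 3 dpf mutants read close to the level of 28 hpf embryos. The difference between the stages was -6.77 (standard error 0.13, adjusted p = 1.1e-11 from limma) on the log2 scale.

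A_15_P197221 was the next, at 6.44, 8.54 and 7.77 in mutants and 731, 543 and 649 in WT siblings, with all mutant samples near the floor. Its log2 difference was -6.40 (95% confidence interval -6.77 to -6.03, adjusted p = 3.4e-06 from limma), and -3.58 on log2 of the intensity plus 50. At 28 hpf it was also lower in mutants, at 106 ± 21.4 (SD, n = 4) against 304 ± 18.6 (SD, n = 4), a log2 difference of -1.54 (adjusted p = 0.00012 from limma in the 28 hpf arrays). In mutants it thus read lower at 3 dpf than at 28 hpf, and in WT siblings higher. The difference between the stages was -4.86 (standard error 0.22, adjusted p = 9.4e-09 from limma), and -2.38 on log2 of the intensity plus 50, where the 28 hpf difference was -1.19.

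**Figure D3:**
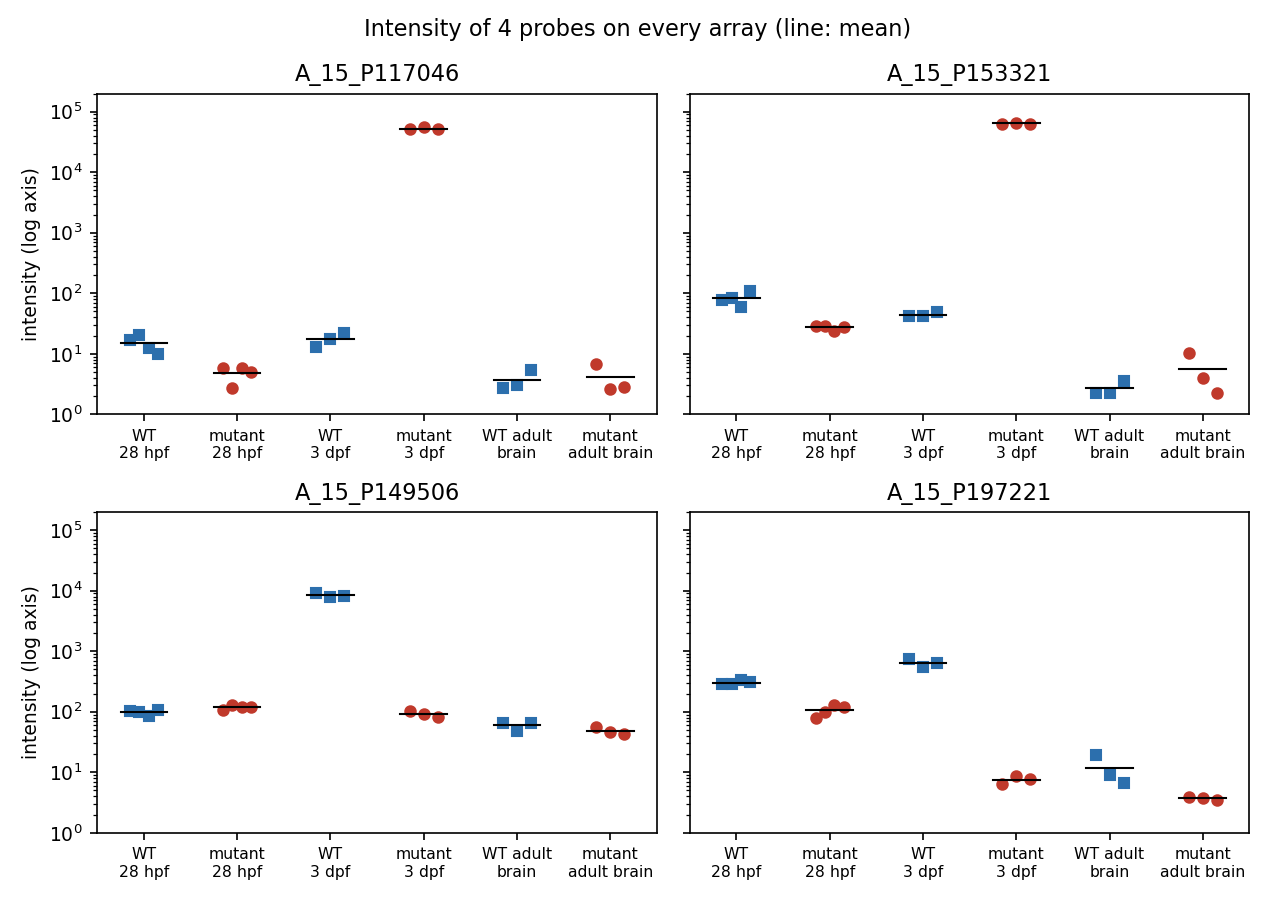
Intensity (log axis) of the 4 named probes on each of the 20 arrays, by genotype and stage (red circles, mutants; blue squares, WT siblings; black lines, means). The probes of the upper row are bright in the 3 mutant samples at 3 dpf alone, A_15_P149506 is bright in the 3 WT samples at 3 dpf alone, and A_15_P197221 is near the floor in 3 dpf mutants and at 543 to 731 in 3 dpf WT siblings.

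The same rule was followed for the 15 largest rises, whose log2 differences were 8.01 to 11.59. Their mean intensities were 1008 to 64089 in mutants, with a median of 9189, and 3.00 to 113 in WT siblings, with a median of 17.4. The third read 43250 in mutants and 43.6 in WT siblings, and the fifteenth 2494 and 9.86. At 28 hpf 11 of the 15 read under 50 in both genotypes, and in adult brain 10 did. The fourth, at 36490 in 3 dpf mutants and 60.5 in WT siblings, was the one rise of the 15 above 500 in adult brain, at 533 in mutants and 702 in WT siblings. None was called higher in mutants at 28 hpf and 6 were called lower there, where 22.9% of all probes were higher and 20.5% lower in a limma fit of the 28 hpf arrays alone.

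The 15 largest falls, had log2 differences from -6.51 to -3.79 and were brighter at 28 hpf than the rises. Their means at 3 dpf were 543 to 171513 in WT siblings, with a median of 8396, and 7.58 to 11145 in mutants, with a median of 354. None was under 50 in both genotypes at 28 hpf, where their medians were 1116 in mutants and 1283 in WT siblings. For 4 of the 15 each genotype read higher at 28 hpf than at 3 dpf. The brightest of these averaged 171513 in 3 dpf WT siblings and 11145 in 3 dpf mutants, and 436974 and 346703 in WT siblings and mutants at 28 hpf. Another averaged 10918 and 834 in WT siblings and mutants at 3 dpf, and 60241 and 31430 at 28 hpf. At 28 hpf 5 of the 15 falls were called lower in mutants and 3 higher, where 20.5% of all probes were lower and 22.9% higher. In adult brain 7 of the 15 were called lower, against 7.60% of all probes.

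The levels of all probes with large changes at 3 dpf were then followed at the other stages. Among probes at least 8-fold higher with a mutant mean above 500 (233 probes), the median intensity was 1882 in 3 dpf mutants and 73.9 in 3 dpf WT siblings. At 28 hpf it was 40.1 in mutants and 39.9 in WT siblings, and in adult brain 66.0 and 99.0. The 3 dpf mutants were the highest of the 6 groups for 209 of these 233 probes, and exceeded each of the other 5 groups at least 8-fold for 144. Adult brain was highest for 21 of the 233, and 28 hpf embryos for 3. Since the probes were chosen as bright in 3 dpf mutants and far dimmer in 3 dpf WT siblings, that order at 3 dpf is set by the choice and the high rank of the mutants is favoured by it. At 28 hpf 116 of the 233 (49.8%) read under 50 in both genotypes, against 24.4% of all probes.

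For the 47 probes at least 8-fold lower with a WT mean above 500, the median was 571 in 3 dpf mutants and 5910 in 3 dpf WT siblings. It was 1191 in mutants and 1459 in WT siblings at 28 hpf, and 234 and 507 in adult brain. The 3 dpf WT siblings were the highest group for 31 of them, 28 hpf embryos for 13 and adult brain for 3. In 28 of the 47 the 3 dpf WT mean was at least 2-fold above both genotypes at 28 hpf, in 5 both genotypes at 28 hpf were at least 2-fold above it, and 14 lay between. These comparisons of levels with 28 hpf use the same 3 dpf arrays as the genotype difference, and no test was made on them.

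**Figure D4:**
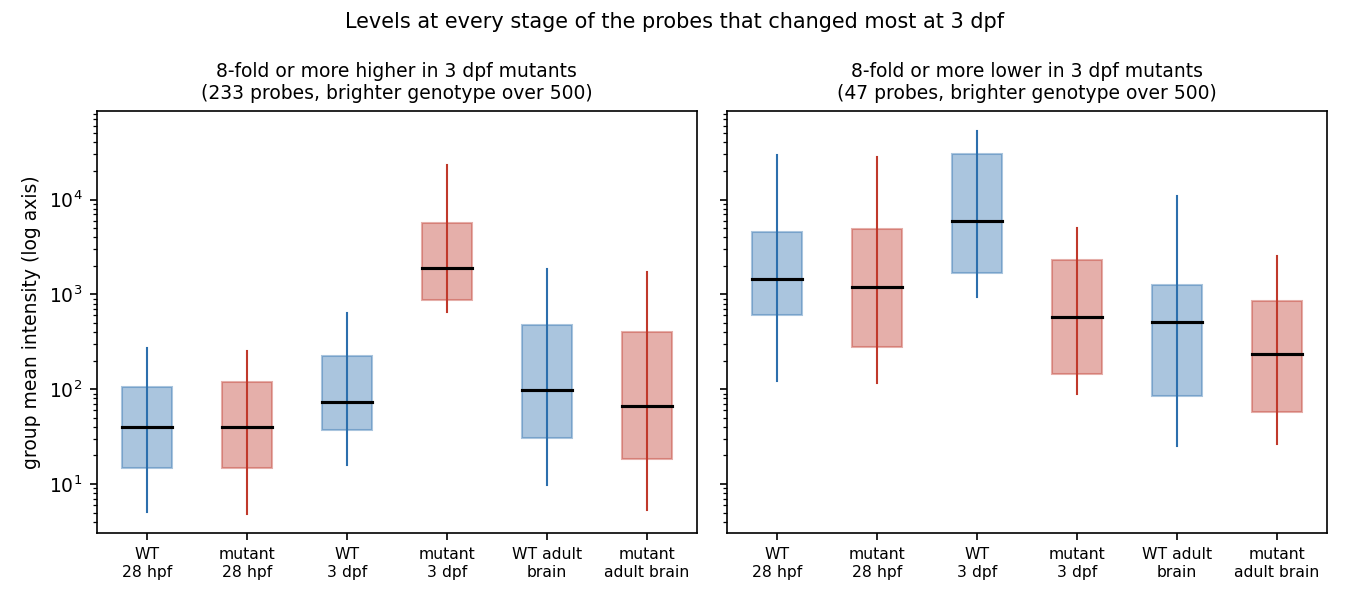
Group mean intensities (log axis) at 28 hpf, at 3 dpf and in adult brain of the probes at least 8-fold higher (left, 233 probes) or lower (right, 47 probes) in 3 dpf mutants with a brighter genotype over 500 (boxes, quartiles; black lines, medians; whiskers, 10th to 90th percentile over probes). Rising probes have medians of 39.9 to 99.0 in every group but 3 dpf mutants, and falling probes have medians of 1191 and 1459 at 28 hpf.

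Samples at 28 hpf and adult brain share no array with the 3 dpf comparison, so genotype differences there are a separate measurement of the same probes. Probes that fell at 3 dpf were called lower at 28 hpf in larger shares than all probes were. Of all probes 20.5% were called lower and 22.9% higher in 28 hpf mutants. Of the 124 probes at least 8-fold lower at 3 dpf, 83 (66.9%) were called lower there and 16 (12.9%) higher, with a median log2 difference of -1.03. Among the 47 bright falls 21 (44.7%) were lower and 13 (27.7%) higher at 28 hpf, with a median of -0.02, while 78 of the 124 falls read under 50 in 3 dpf mutants. Of probes 2- to 8-fold lower, 48.8% were lower at 28 hpf, and of those under 2-fold lower, 27.1%. In adult brain the shares called lower were 40.3%, 22.7% and 10.3% in the same order, against 7.60% of all probes. At both other stages 32 of the 124 (25.8%) were called lower, against 3.03% of all probes, and 7 of the 47 bright falls were (14.9%). None of the 124 was called higher at both, against 3.16% of all probes. In mutants 44 of the 124 read under 50 at all 3 stages, as did 6924 of all 43603 probes. At 3 dpf alone 78 of the 124 and 11451 of all probes read under 50 in mutants. A low 3 dpf mutant value is part of how the 124 were chosen, so their larger share is a description.

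The shares for the largest rises are given first for all of them and then by their brightness at 28 hpf or at 3 dpf. Of the 476 probes at least 8-fold higher at 3 dpf, 106 (22.3%) were called higher in 28 hpf mutants and 86 (18.1%) lower, against the 22.9% and 20.5% of all probes, with a median log2 difference of -0.02. In adult brain 39 (8.19%) were higher and 23 (4.83%) lower, against 8.49% and 7.60%. Moderate rises stood above the background, with 36.4% of probes 2- to 8-fold higher and 37.1% of those under 2-fold called higher at 28 hpf. Many of the large rises were dim at 28 hpf, with 324 of 476 (68.1%) under 50 in both genotypes there, and of these 50 (15.4%) were higher and 44 (13.6%) lower. Of the 10650 probes of the array that dim 1182 were called higher and 1065 lower there. Among the 152 that were not dim, 56 (36.8%) were higher and 42 (27.6%) lower at 28 hpf, against 26.8% and 23.9% of all probes that were not dim. Among the 233 bright rises, with a 3 dpf mutant mean above 500, the order was the reverse. Of these 50 (21.5%) were higher and 61 (26.2%) lower at 28 hpf, with a median log2 difference of -0.07. Of the 31 probes at least 8-fold higher at 28 hpf 9 were among these 476, and of the 77 at least 8-fold lower there 28 were among the 124 falls. Both overlaps are larger shares than the 476 and the 124 have of all 43603 probes. They lay mostly outside the bright groups, since 3 of the 9 were among the 233 bright rises and 1 of the 28 among the 47 bright falls. The differences between these shares were not tested.

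**Figure D5:**
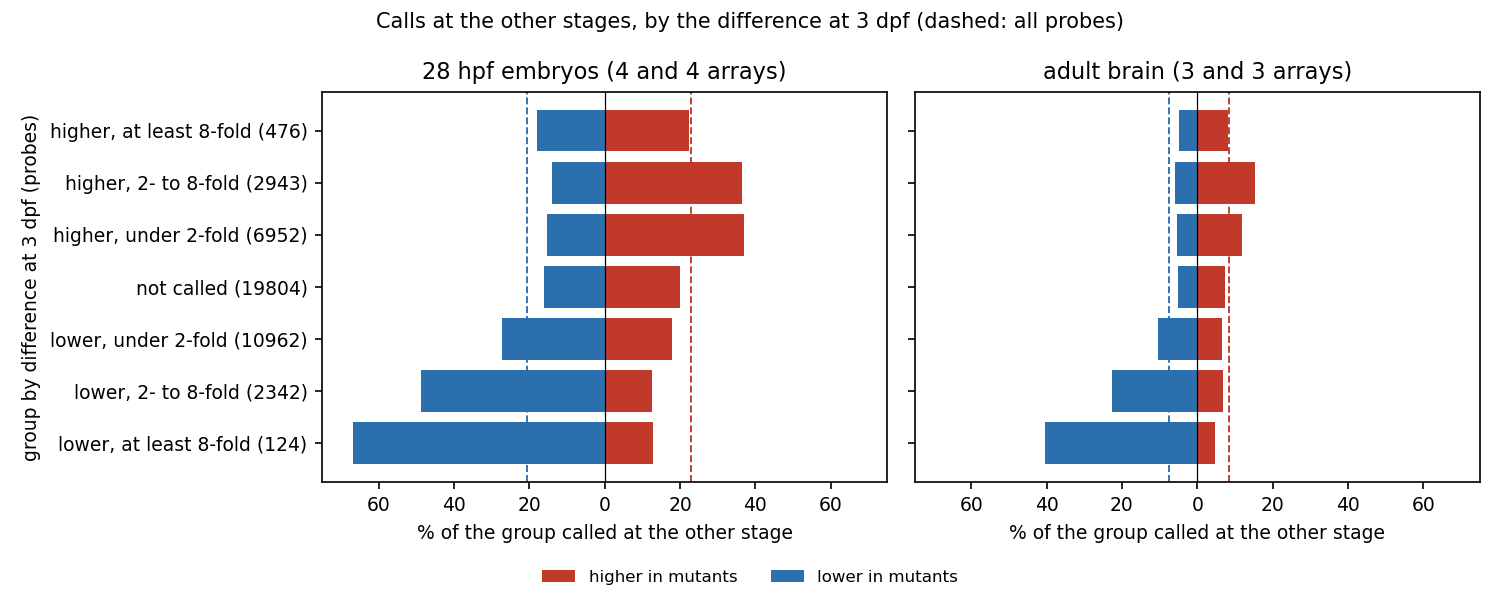
Share of probes called higher (red, to the right) or lower (blue, to the left) in mutants at 28 hpf (left panel) and in adult brain (right panel), for probes grouped by their call and size of change at 3 dpf, with the number of probes in brackets and dashed lines at the shares of all probes. Calls are limma fits of each stage alone at an adjusted p under 0.05. Probes at least 8-fold lower at 3 dpf were lower at 28 hpf in 66.9% of cases, and those at least 8-fold higher were higher there in 22.3%. These 2 groups differ in brightness, since 13.7% of the falls and 68.1% of the rises read under 50 in both genotypes at 28 hpf.

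The genotype difference at 3 dpf was set against that at 28 hpf directly, in one limma fit of the 14 embryo arrays. It differed for 22690 probes at an adjusted p under 0.05 (52.0% of all), being more positive at 3 dpf for 9371 and more negative for 13319. The median log2 difference over all probes was -0.078 at 3 dpf and 0.0095 at 28 hpf. Whether the excess of more negative differences depends on this centring was not tested. Of the probes called at 3 dpf 73.3% were among the 22690. Of the probes at least 8-fold higher at 3 dpf 467 of 476 were, and of those at least 8-fold lower 108 of 124. These tests use the 3 dpf arrays by which the probes were chosen, so their high shares follow from the choice and count as description. Among probes called at both stages, differences at 28 hpf were also smaller. Of the 11795 probes called at both stages, each in the arrays of its own stage, the median absolute log2 difference was 0.65 at 3 dpf and 0.40 at 28 hpf. Both genotype differences had the same sign for 7955 of these, and for 5828 of the 7955 the difference was larger at 3 dpf. The calls rest on 3 and 3 arrays at 3 dpf and on 4 and 4 at 28 hpf, so they do not select differences of like size.

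No single array carried the counts of large changes. Leaving out any of the 6 arrays left 465 to 495 probes at least 8-fold higher and 119 to 130 at least 8-fold lower. Among the 124 probes at least 8-fold lower, mutant replicate 3 lay nearest to the WT mean for 41, replicate 1 for 37 and replicate 2 for 46. Among the 476 probes at least 8-fold higher, mutant replicate 3 lay nearest to the WT mean for 243, replicate 1 for 185 and replicate 2 for 48. For these 476 the median log2 differences of mutant replicates 3, 1 and 2 from the WT mean were 4.03, 4.06 and 4.12. The gaps between mutant arrays were small beside the difference between genotypes. These probes were chosen by that difference on the same arrays, so the comparison is a description.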

How the data were processed

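RNA of pooled 3 dpf embryos was measured on one-colour (Cy3) Agilent 4x44K zebrafish arrays. The authors quantile normalized the scanned data and deposited intensities on a linear scale for 43603 probes and 20 arrays. They re-annotated the probes on danRer11, which was not done again here. Which slide each array was on, how it was scanned and how its background was treated are not given in these sources, so slide and genotype cannot be told apart. The number of arrays limits the precision.

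Log2 intensities of the 6 arrays were fitted with limma 3.58.1 (R 4.3.3), with 2 group means and empirical Bayes moderation (2.04 prior degrees of freedom, 6.04 in total). P-values were two-sided and adjusted by Benjamini-Hochberg over 43603 probes, with calls under 0.05. No probe was filtered. The arrays of 28 hpf and of adult brain were each fitted alone in the same way, and the difference between 3 dpf and 28 hpf in 4 group means over 14 arrays. At 28 hpf each genotype has samples numbered 1 and 1.1, which were kept as separate. Whether they came from separate pools is not stated, so the n of 4 may count a pool more than once. With 1 and 1.1 averaged the difference from 28 hpf held for 20761 probes. The calls of the 28 hpf arrays alone were not repeated in that way. The labels also give that stage as 28 dpf in one field, and the 28 hpf of the other labels was used.

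The rule for named probes took the largest rises and falls, with non-overlapping genotypes and a brighter mean above 500, 2 each since no gene names were at hand. For the same reason planned gene lists were not used. The comparison and its rules were chosen with earlier results of these data known. Alternatives were other spreads, scales, normalizations, thresholds, filters and left-out arrays. Replicate numbers were not taken as pairs.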

Additional observations from a re-analysis of the deposited data

Results flagged for a closer look

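The genotype difference at 3 dpf differed from that at 28 hpf by the test of the difference itself for 22690 probes, and for each of the 4 named probes. The named probes were chosen by their 3 dpf difference on the same arrays, so for them the test is a description. On the log2 scale the difference between the stages was 13.22 for A_15_P117046, 12.07 for A_15_P153321, -6.77 for A_15_P149506 and -4.86 for A_15_P197221. With 50 added to the intensities the differences were 9.85, 10.17, -6.07 and -2.38 in the same order. Within the 4 mutant samples at 28 hpf, A_15_P153321 read 24.1 in replicate 2 and 27.8 to 28.5 in the others, a gap of 0.853 of the range of log2 values. Chance flags about 1 in 20 groups of this kind.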

How the results depend on the processing

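No probe called both in the main setting and in an alternative changed direction, and each of the 4 named probes kept its direction and its call in every alternative that tested it. The adjusted p of the named probes from limma or the unmoderated test was 0.00068 or lower throughout. Alternatives that changed only the variance estimate, the threshold or the set of probes left each difference as it was. A change of direction was not possible in those, and the named probes were chosen as the largest differences. With only probes above the median mean log2 intensity 14684 probes were changed, 6440 higher and 8244 lower, of 21801 tested. With a change of at least 1.5-fold as well 12988 were changed, 6234 higher and 6754 lower, and the difference from 28 hpf held for 12840 probes. With single arrays left out the range was 20015 to 22443 changed, 8984 to 9806 higher and 11031 to 12684 lower, and 20993 to 22545 for the difference from 28 hpf. With a replicate block 21558 were changed, 9518 higher and 12040 lower. The deviations of 0 of 3 mutant arrays followed those of the WT array of that number best (r of -0.058 to -0.0091 for equal numbers). These values show no shared deviation by number, but cannot tell whether samples of equal number shared a clutch or a slide. At least 8-fold changes fell to 190 higher and 39 lower on log2 of the intensity plus 50, and to 139 and 44 among the brighter probes. Shifting the mutant arrays to a median difference of 0, chosen after seeing the data, lowered the share of lower probes among those changed from 56.4% to 48.4%. All other settings stayed within 1.5 times the main counts. Quantile normalizing again hardly alters the values and tests nothing. How many dim probes carry signal cannot be told without a background reading.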
